A study of Mus musculus with 6 samples.

Results

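The machinery that copies DNA was followed through 46 genes, which license origins, unwind and copy the double helix, supply deoxynucleotides and restore chromatin and DNA methylation behind the fork. They were chosen by symbol, for these functions and not for a measured value, but with earlier results of these data known. All 46 symbols stood in the count table of 23420 genes, and all 46 passed the filter on low counts, among 11974 genes tested. The transcriptome was measured in mesenchymal stromal cells (MSCs), plastic-adherent cells expanded from the bone marrow of 6- to 8-week-old female C57BL/6 mice and transduced at passage 5 with the retroviral construct AP2, which also carries eGFP. The 3 libraries labelled Ctl MSC came from cells given the empty construct. The 3 libraries labelled MSC-TPr came from cells given the construct for β1i, β2i and β5t (Psmb9, Psmb10 and Psmb11), the 3 catalytic subunits of the thymoproteasome. Both groups therefore shared the strain, the passage at transduction, the viral backbone and eGFP. The passage at RNA extraction is not given in the sources used here. The labels do not say whether the libraries of a group came from separate cultures or animals. The p-values therefore measure the spread between these libraries, which may be technical.

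In a dividing cell, the origin recognition complex with Cdc6 and Cdt1 loads the MCM2-7 ring onto DNA before S phase. Mcm10, Cdc45 and the GINS complex then turn this ring into the active helicase, primase and the polymerases copy both strands on the clamp Pcna, and Fen1 and Lig1 join the pieces of the lagging strand. Many of these genes are known targets of E2F transcription factors, which are held back by the retinoblastoma proteins in resting cells. MSCs divide in culture and stop dividing with confluence, ageing or differentiation.

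Reads on genes numbered 16158756 to 22158887 per library. Levels are given in CPM, the counts scaled to a common library size with edgeR's TMM factors, and the floor of 3 reads equals 0.139 to 0.181 CPM, for counting error only. The labels could not be checked by the transduced genes, since Psmb9, Psmb10 and Psmb11 each overlapped between the groups and Psmb11 stayed between 0.046 and 0.355 CPM. The 2 of them that passed the filter were highest in Ctl MSC 1, MSC-TPr 2 and MSC-TPr 3. Their log2 differences of MSC-TPr 1 minus Ctl MSC 1 were −2.40 and −1.62. Every direction below is therefore one between library labels. The libraries Ctl MSC 1 and MSC-TPr 1 stood apart from their labels. In 2758 of the 11974 genes tested (23.0%), the 3 highest libraries were Ctl MSC 1, MSC-TPr 2 and MSC-TPr 3, and in a further 2596 the 3 highest were Ctl MSC 2, Ctl MSC 3 and MSC-TPr 1, against 1269 and 1443 genes whose groups did not overlap. The comparisons over the 46 genes are therefore given with and without these 2 libraries. Among 10 MSC markers, Thy1 (CD90), a defining marker, had 1 read in Ctl MSC 1 and 0 in the other 5 libraries, and Nt5e (CD73) reached 11.4, 20.2 and 17.4 CPM for Ctl MSC 1, 2 and 3, against 2.66, 4.20 and 5.24 CPM for MSC-TPr 1, 2 and 3. The 10 together summed to 2976 to 15212 CPM per library, with 1 of the 10 at or under the floor throughout. For the surface proteins, the paper reports CD73 and CD90 on Ctl MSCs by flow cytometry, and an unaltered mesenchymal phenotype in MSC-TPr.

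The DNA in front of the genes was examined in the RefSeq promoter windows of GRCm38.p6 (mm10), of which 38 of the 46 genes had an entry, while Gmnn, Mcm4, Gins1, Gins2, Gins4, Rfc2, Prim2 and Pole had none. In the 250 bases before the start, both strands were searched for the letters TTTCCCGC, TTTCGCGC, TTTGCCGC and TTTGGCGC, which are forms of the E2F binding motif, for CCAAT, the motif of NF-Y, and for TTTGAA, the cell cycle homology region that is known from genes of late division. At least 1 E2F match stood in 10 of the 38 genes (26.3%), against 583 of all 27025 genes with a window (2.16%). CCAAT stood in 25 of the 38 (65.8%) against 37.5% of all genes, and TTTGAA in 6 (15.8%) against 18.3%. A match describes letters and is no evidence of binding, and no match says only that these letters are not in this window.

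The 10 genes with E2F letters were Orc1, Cdc6, Mcm5, Mcm6, Mcm7, Gins3, Rfc3, Pola1, Uhrf1 and Dnmt1, and 6 of their sites are shown because they come from steps as far apart as origin recognition and methylation copying. Each line gives 30 bases in the direction of the gene, with the matched letters in capitals.
Orc1: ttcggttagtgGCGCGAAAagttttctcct
Cdc6: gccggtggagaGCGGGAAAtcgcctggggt
Mcm7: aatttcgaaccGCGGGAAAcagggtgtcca
Pola1: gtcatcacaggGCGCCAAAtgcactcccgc
Dnmt1: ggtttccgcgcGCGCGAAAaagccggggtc
Uhrf1: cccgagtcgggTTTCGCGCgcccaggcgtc
The Orc1 site lies at chr4:108579416-108579445 (+ strand), with its match 27 bases before the RefSeq start, and overlaps an exon of the GENCODE model of Orc1. The Cdc6 site at chr11:98908002-98908031 (+ strand) and the Uhrf1 site at chr17:56304117-56304146 (+ strand) lie in introns of longer GENCODE transcripts of these genes. The Mcm7 site at chr5:138172030-138172059 (- strand) overlaps exons of Mcm7 and of its neighbour Ap4m1, the Dnmt1 site at chr9:20952824-20952853 (- strand) overlaps an exon of Dnmt1, and the Pola1 site at chrX:93632275-93632304 (- strand) lies outside annotated genes. Orc1 and Cdc6 carried GCGCGAAA and GCGGGAAA, the reverse complements of TTTCGCGC and TTTCCCGC, so that the same core was read from the other strand.

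The MCM2-7 ring holds its 6 subunits in equal number, and the windows of 4 of them are shown whole because these genes differed in how much their levels varied. E2F letters and CCAAT, on either strand (ATTGG on the other strand), are in capitals.
Mcm2: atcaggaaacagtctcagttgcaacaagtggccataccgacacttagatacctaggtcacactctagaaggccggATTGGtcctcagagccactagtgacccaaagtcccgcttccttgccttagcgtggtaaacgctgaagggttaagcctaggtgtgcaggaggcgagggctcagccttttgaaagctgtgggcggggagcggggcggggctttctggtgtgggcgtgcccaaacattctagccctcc
Mcm3: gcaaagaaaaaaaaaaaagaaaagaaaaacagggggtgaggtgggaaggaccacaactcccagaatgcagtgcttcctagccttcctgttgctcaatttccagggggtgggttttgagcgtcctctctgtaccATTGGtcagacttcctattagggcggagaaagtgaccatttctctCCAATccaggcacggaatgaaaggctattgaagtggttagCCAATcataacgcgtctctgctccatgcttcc
Mcm5: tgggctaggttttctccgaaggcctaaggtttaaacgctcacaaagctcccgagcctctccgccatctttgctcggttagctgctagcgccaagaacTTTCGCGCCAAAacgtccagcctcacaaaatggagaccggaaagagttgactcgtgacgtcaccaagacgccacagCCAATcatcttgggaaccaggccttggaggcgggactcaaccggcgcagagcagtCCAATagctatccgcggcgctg
Mcm6: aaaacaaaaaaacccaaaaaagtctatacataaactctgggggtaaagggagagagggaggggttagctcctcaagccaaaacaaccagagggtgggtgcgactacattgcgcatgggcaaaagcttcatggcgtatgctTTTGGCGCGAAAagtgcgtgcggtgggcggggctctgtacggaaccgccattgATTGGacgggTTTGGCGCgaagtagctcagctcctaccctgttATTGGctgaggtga
The Mcm2 window lies at chr6:88898781-88899030 (- strand), that of Mcm3 at chr1:20820313-20820562 (- strand), that of Mcm5 at chr8:75109259-75109508 (+ strand) and that of Mcm6 at chr1:128359706-128359955 (- strand), and none of them touches an exon of its gene. Mcm5 held 2 overlapping E2F matches on opposite strands, 153 and 149 bases before the start, and 2 CCAAT matches at 77 and 22 bases. Mcm6 likewise held an overlapping pair at 110 and 106 bases, with another E2F match at 47 bases and CCAAT matches at 57 and 14 bases. Mcm3 held 3 CCAAT matches at 117, 72 and 32 bases and no E2F letters. Mcm2 held 1 CCAAT match at 175 bases and no E2F letters. Mcm7 is not among these 4. It varied least of the ring, at 1.35-fold over the libraries, and 1 of its 2 windows held an E2F match 165 bases before the start.

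The replication genes split the 6 libraries into a high and a low set that crossed the labels. The 46 genes took 0.393, 0.151 and 0.155% of the reads on genes in Ctl MSC 1, 2 and 3, against 0.158, 0.367 and 0.319% in MSC-TPr 1, 2 and 3. Their mean log2 CPM was 5.93, 4.26 and 4.32 for Ctl MSC, against 4.16, 5.90 and 5.70 for MSC-TPr. Ctl MSC 1 was thus near MSC-TPr 2 and 3, and MSC-TPr 1 was near Ctl MSC 2 and 3. In bulk RNA, fewer cells in S phase and less of these transcripts per cell cannot be told apart. The level of each gene in each library is drawn in the map of log2 CPM by role.

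**Figure D1:**
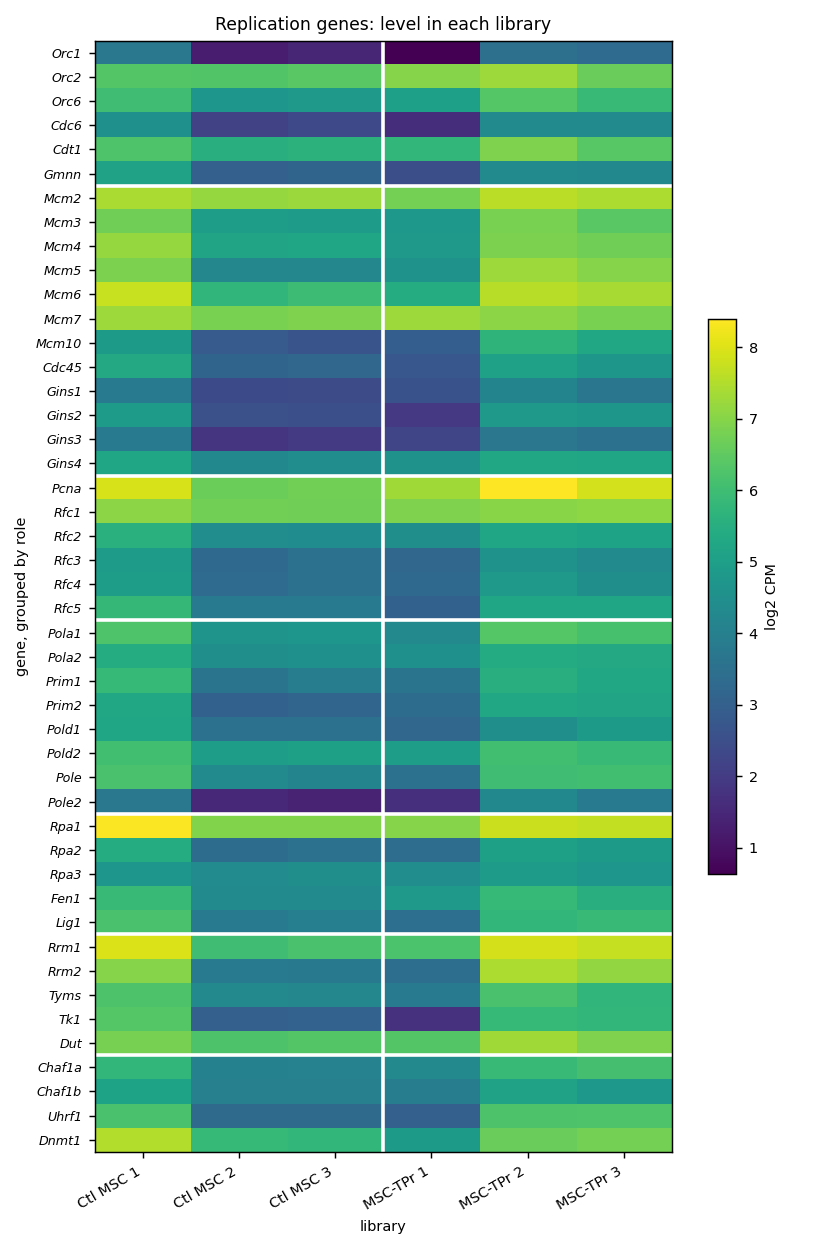
Level of the 46 replication genes (rows, grouped by role between white lines) in each of the 6 libraries (columns, Ctl MSC to the left and MSC-TPr to the right of the vertical white line), as log2 CPM on the colour scale. In 44 rows the 3 brightest cells are Ctl MSC 1, MSC-TPr 2 and MSC-TPr 3, and the exceptions are Orc2 and Mcm7.

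In 44 of the 46 genes the 3 highest libraries were Ctl MSC 1, MSC-TPr 2 and MSC-TPr 3, against 23.0% of all genes. The exceptions were Orc2, highest in the 3 libraries labelled MSC-TPr, and Mcm7, highest in Ctl MSC 1, MSC-TPr 1 and MSC-TPr 2. Within the high set no library led throughout, since Ctl MSC 1 was the highest library in 27 genes, MSC-TPr 2 in 15 and MSC-TPr 3 in 3. Within the low set, MSC-TPr 1 was the lowest library in 23 genes, Ctl MSC 2 in 18 and Ctl MSC 3 in 5, and MSC-TPr 1 lay below both Ctl MSC 2 and 3 in 23 genes and above both in 19. The same-labelled libraries of each set were close to each other. Ctl MSC 2 and 3 differed by a median of 1.06-fold and by at most 1.22-fold, and MSC-TPr 2 and 3 by a median of 1.14-fold and at most 1.56-fold, with 45 of the 46 genes under 1.5-fold. From the lowest to the highest of the 6 libraries the genes spanned 1.29-fold (Rfc1) to 25.3-fold (Tk1). The median span was 4.21-fold, against 1.92-fold over all genes tested.

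Over all 6 libraries, none of the 46 genes differed between the labels in edgeR's quasi-likelihood test at an adjusted p under 0.05 (Benjamini-Hochberg over all genes tested) together with an absolute log2 fold change of 0.5 or more. Among all genes tested, 0.0251% were called higher and 0.401% lower in MSC-TPr. Only Orc2 had an unadjusted p under 0.05, which 15.0% of all genes had, and DESeq2, which gave no adjusted p for Tk1, called 0 of the other 45 in either direction, where its calls were 1.89% of all genes higher and 3.39% lower. The log2 fold changes (MSC-TPr against Ctl MSC) ran from −0.31 (Dnmt1) to 1.23 (Mcm10) with a median of 0.31, against 0.01 for all genes, and their standard errors ran from 0.154 to 1.23. In 45 of the 46 genes the spread within the Ctl MSC libraries exceeded the difference between the labels, and so did the spread within the MSC-TPr libraries in 45. Orc2 was also the only one of the 46 genes whose groups did not overlap, which 10.6% of all genes did in the higher and 12.1% in the lower direction.

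Without Ctl MSC 1 and MSC-TPr 1, 41 of the 46 genes were called higher in MSC-TPr and 0 lower in the same test, where 20.6% of all genes were called higher and 19.4% lower. The 5 genes not called were Orc2, Mcm2, Mcm7, Rpa3 and Rfc1, of which Rfc1 passed the adjusted p alone (0.049) with a log2 fold change of 0.33. The median log2 fold change was 1.53, against −0.00156 for all genes, and the values ran from 0.07 (Mcm7) to 3.51 (Rrm2). Between the 2 libraries numbered 1 the direction was the opposite. MSC-TPr 1 lay below Ctl MSC 1 in 44 of the 46 genes, with a median log2 difference of −1.90, and by at least 2-fold in 36, against 16.3% of all genes. This pair has no replicate and was not tested. Leaving out both libraries numbered 2 or both numbered 3 gave 0 calls among the 46 and 0 among all genes tested. The calls came in the comparison without Ctl MSC 1 and MSC-TPr 1. These 2 libraries were left out because of their levels in these same data. What remains is 2 libraries of the high set, both labelled MSC-TPr, against 2 of the low set, both labelled Ctl MSC. The p-values of this fit, here and below, therefore describe the split of the libraries and are no independent test of the labels.

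**Figure D2:**
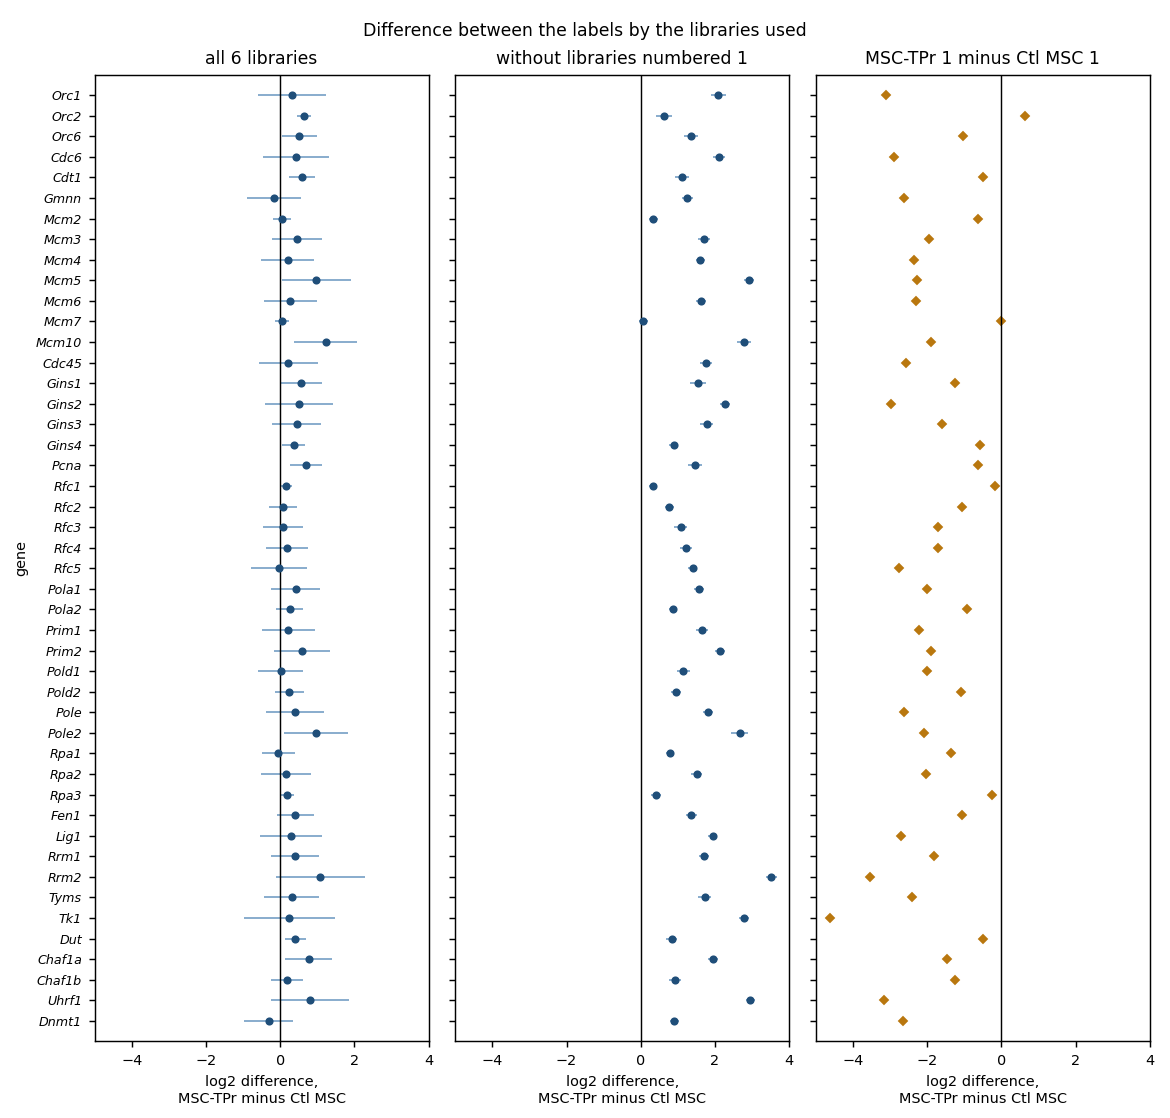
Log2 difference of MSC-TPr minus Ctl MSC for each of the 46 genes over all 6 libraries (left, edgeR estimate with its standard error), without the 2 libraries numbered 1 (middle, same) and between the 2 libraries numbered 1 (right, single values with no error). The points lie about 0.31 in the median on the left, are all above 0 in the middle with a median of 1.53, and are below 0 in 44 genes on the right.

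Among the 6 genes of origin licensing, 5 were called higher in MSC-TPr without the libraries numbered 1 (20.6% of all genes). The 6 genes had a median log2 fold change of 1.30 there, and none was called over all 6 libraries. Orc1, the largest subunit of the origin recognition complex, varied most among them. It reached 13.2, 2.30 and 2.65 CPM for Ctl MSC 1, 2 and 3, against 1.44, 11.1 and 9.97 CPM for MSC-TPr 1, 2 and 3. Its lowest library was MSC-TPr 1 and its highest Ctl MSC 1, a span of 9.15-fold, so that the groups overlapped. The log2 fold change was 0.32 with a standard error of 0.927 over 6 libraries (adjusted p 0.901 in edgeR's quasi-likelihood test) and 2.09 with a standard error of 0.197 without the libraries numbered 1 (adjusted p 0.0008). Cdc6, the loader of the MCM ring, had nearly the same shape, at 23.1, 4.33 and 4.96 CPM for Ctl MSC, against 3.05, 20.4 and 19.9 CPM for MSC-TPr.

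Orc2, another subunit of the same complex, gave a different picture. It reached 80.5, 79.1 and 84.5 CPM for Ctl MSC (81.4 ± 2.8 CPM, SD, n = 3) and 126, 155 and 99.5 CPM for MSC-TPr (127 ± 27.7 CPM, SD, n = 3). The 3 Ctl MSC libraries were level with each other and all lay below the 3 MSC-TPr libraries, MSC-TPr 1 included. The log2 fold change was 0.64 with a standard error of 0.190 (adjusted p 0.213) over 6 libraries and again 0.64 (standard error 0.214, adjusted p 0.052) without the libraries numbered 1, so the difference passed neither test. Orc2 (chr1:58462771-58505109, − strand) shares 29.8% of its exonic length with exons of Nif3l1 on the opposite strand, and whether the counting used the strand is not given in the sources used here. Of the remaining licensing genes, Cdt1 reached 44.9 to 77.1 CPM for Ctl MSC, against 54.3 to 120 CPM for MSC-TPr, and Orc6 26.2 to 65.4 and 32.0 to 81.6 CPM. Gmnn, whose product geminin holds Cdt1 back after origins have fired, was highest in Ctl MSC 1 at 34.3 CPM, above MSC-TPr 2 and 3 at 20.5 and 19.1 CPM, and lowest in MSC-TPr 1 at 5.48 CPM.

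Of the 12 helicase genes, 10 were called higher without the libraries numbered 1 (20.6% of all genes) and none over all 6. Mcm10, which helps to start the assembled helicase, had the widest span of the 12 at 8.40-fold. It reached 28.8, 7.16 and 6.12 CPM for Ctl MSC, against 7.64, 51.4 and 39.4 CPM for MSC-TPr. It was higher in both MSC-TPr 2 and 3 than in Ctl MSC 1, and its log2 fold change of 1.23 over 6 libraries was the largest of all 46, with a standard error of 0.846 and an adjusted p of 0.542. Without the libraries numbered 1 it was 2.77 with a standard error of 0.189 (adjusted p 0.000277).

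Mcm7, a subunit of the ring, was the narrowest of the 12. It reached 155, 115 and 120 CPM for Ctl MSC (130 ± 21.9 CPM, SD, n = 3) and 155, 131 and 115 CPM for MSC-TPr (134 ± 20.0 CPM, SD, n = 3). Ctl MSC 1 and MSC-TPr 1 were level, and the groups overlapped. The log2 fold change was 0.04 with a standard error of 0.188 over 6 libraries (adjusted p 0.933) and 0.07 with a standard error of 0.121 without the libraries numbered 1 (adjusted p 0.640). The Mcm7 gene (chr5:138164583-138172422, − strand) hosts Mir25 and Mir93 on its own strand, which cover 3.89% of its exonic length. It shares 8.70% with exons of Cops6 and Ap4m1 on the opposite strand. Reads that could not be assigned to 1 gene were listed apart as ambiguous, at 0.939 to 1.09% of listed counts per library. How many of them lie in Mcm7 is not given, nor whether the opposite strand was counted as overlap.

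The other ring subunits lay between these. Mcm2 reached 170, 144 and 150 CPM for Ctl MSC, against 111, 195 and 175 CPM for MSC-TPr, with the set of high libraries only slightly above the rest. Mcm5 reached 118, 18.6 and 18.5 CPM for Ctl MSC, against 24.4, 152 and 127 CPM for MSC-TPr, a span of 8.22-fold. Mcm3, Mcm4 and Mcm6 spanned 4.20-, 5.17- and 4.97-fold. Cdc45, which binds the ring to form the active helicase, spanned 6.02-fold, from 6.59 CPM in MSC-TPr 1 to 39.6 CPM in Ctl MSC 1. Within the GINS complex Gins2 spanned 8.08-fold and Gins4 2.01-fold.

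Per kilobase of merged exons, the MCM2-7 subunits lay closer to each other in the high libraries than in the low ones. The highest subunit exceeded the lowest by 1.89-fold in Ctl MSC 1 and by 1.45- and 1.57-fold in MSC-TPr 2 and 3. In Ctl MSC 2 and 3 and MSC-TPr 1 this ratio was 5.56-, 5.85- and 5.73-fold. Mcm7 was the highest and Mcm5 the lowest subunit in each of these 3 libraries, at 25.9 and 4.65 CPM per kilobase in Ctl MSC 2 and at 35.0 and 6.11 CPM per kilobase in MSC-TPr 1. In Ctl MSC 1, MSC-TPr 2 and MSC-TPr 3 the highest was Mcm6, at 46.3, 40.7 and 35.6 CPM per kilobase. These ratios describe transcripts in single libraries, with exons of all annotated transcripts merged, and say nothing of the proteins. Which subunit is highest or lowest in a library depends on these merged lengths, such as 6956 bases for Mcm2 and 3589 for Mcm4.

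**Figure D3:**
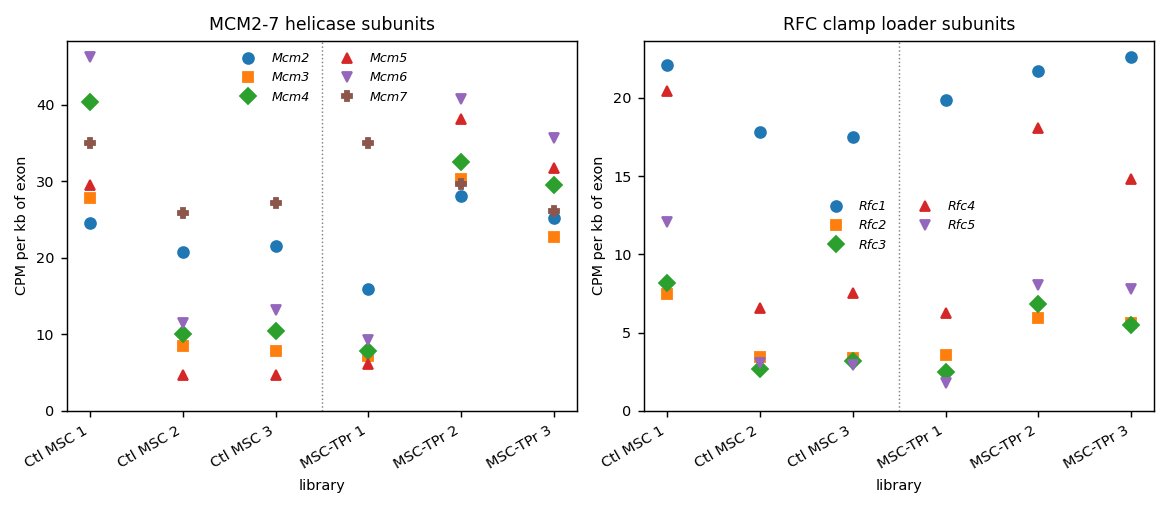
Level per kilobase of exon (vertical axis, CPM per kb, from 0) of the 6 MCM2-7 subunits (left) and the 5 subunits of the clamp loader RFC (right) in each library. The MCM points lie within 1.89-fold of each other in Ctl MSC 1, MSC-TPr 2 and MSC-TPr 3. They spread over 5.56- to 5.85-fold in the other libraries. Rfc1 is the highest RFC point in all 6. Exons of all annotated transcripts are merged, so the order of subunits within a library depends on these lengths.

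The clamp and the subunits of its loader likewise differed in how much they varied. Pcna, the ring that tethers the polymerases, reached 243, 100 and 106 CPM for Ctl MSC, against 157, 338 and 234 CPM for MSC-TPr, and in this gene MSC-TPr 1 lay well above Ctl MSC 2 and 3. Rfc1, the large subunit of the loader, was the most even of the 46 genes. It reached 133, 107 and 106 CPM for Ctl MSC (115 ± 15.5 CPM, SD, n = 3) and 119, 131 and 136 CPM for MSC-TPr (129 ± 8.49 CPM, SD, n = 3). Its log2 fold change was 0.16 with a standard error of 0.154 over 6 libraries (adjusted p 0.678).

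Rfc5, a small subunit of the loader, reached 56.2, 14.4 and 13.7 CPM for Ctl MSC, against 8.19, 37.6 and 36.4 CPM for MSC-TPr, a span of 6.86-fold. Here Ctl MSC 1 stood above MSC-TPr 2 and 3, MSC-TPr 1 stood below all others, and the log2 fold change over 6 libraries was −0.04 with a standard error of 0.752 (adjusted p 0.988). Without the libraries numbered 1 it was 1.39 with a standard error of 0.122 (adjusted p 0.000629). Rfc2, Rfc3 and Rfc4 spanned 2.23-, 3.30- and 3.27-fold. Per kilobase, Rfc1 was the highest of the 5 subunits in every library and exceeded the lowest by 2.96-fold in Ctl MSC 1, by 6.73- and 5.96-fold in Ctl MSC 2 and 3, by 11.3-fold in MSC-TPr 1 and by 3.67- and 4.11-fold in MSC-TPr 2 and 3. The order of the subunits rests on the merged exon lengths, such as 6303 bases for Rfc2 and 1533 for Rfc4. All 5 clamp and loader genes other than Rfc1 were called higher without the libraries numbered 1 (20.6% of all genes).

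All 8 primase and polymerase genes were called higher in MSC-TPr without the libraries numbered 1 (20.6% of all genes). The 8 genes had a median log2 fold change of 1.61 there, and none was called over all 6 libraries. Pole2, the second subunit of the leading-strand polymerase epsilon, varied most. It reached 13.4, 2.72 and 2.48 CPM for Ctl MSC, against 3.10, 19.1 and 14.0 CPM for MSC-TPr, a span of 7.70-fold. Its log2 fold change was 0.96 with a standard error of 0.872 over 6 libraries (adjusted p 0.654) and 2.66 with a standard error of 0.229 without the libraries numbered 1 (adjusted p 0.000589). Pola2, a regulatory subunit of polymerase alpha, varied least, at 43.5, 22.4 and 23.0 CPM for Ctl MSC, against 23.0, 42.7 and 40.0 CPM for MSC-TPr. Its 3 high libraries lay within 43.5 to 40.0 CPM and its 3 low ones within 22.4 to 23.0 CPM. Prim1 and Prim2, the primase subunits that lay down the RNA primers, spanned 4.68- and 4.82-fold, Pola1 4.22-fold, Pold1 and Pold2 of the lagging-strand polymerase delta 4.07- and 2.13-fold, and Pole, the catalytic subunit of epsilon, 6.16-fold.

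Of the single-strand binding and joining genes, Lig1, the ligase that seals Okazaki fragments, varied most. It reached 72.1, 14.1 and 15.6 CPM for Ctl MSC, against 11.0, 55.0 and 58.4 CPM for MSC-TPr. The log2 fold change was 0.29 with a standard error of 0.833 over 6 libraries (adjusted p 0.900) and 1.94 with a standard error of 0.128 without the libraries numbered 1 (adjusted p 0.000262). Rpa3, the smallest subunit of the single-strand binding protein RPA, varied least, at 26.0, 20.6 and 22.4 CPM for Ctl MSC (23.0 ± 2.75 CPM, SD, n = 3) and 21.7, 30.3 and 26.4 CPM for MSC-TPr (26.1 ± 4.33 CPM, SD, n = 3). It kept the order of the other genes, with Ctl MSC 1, MSC-TPr 2 and MSC-TPr 3 highest, but within 1.48-fold. Its partners Rpa1 and Rpa2 spanned 2.68- and 4.22-fold, and Fen1, the nuclease that trims the flaps between fragments, 2.92-fold. Rpa1 was the gene with the highest level of all 46 in Ctl MSC 1, at 327 CPM, against 122 and 123 CPM in Ctl MSC 2 and 3, while MSC-TPr 1, 2 and 3 held 126, 219 and 205 CPM.

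The deoxynucleotide genes held the widest spans of all. Tk1, the thymidine kinase of the salvage pathway (chr11:117815526-117826092, − strand), reached 81.1, 7.96 and 8.33 CPM for Ctl MSC, against 3.21, 57.3 and 54.5 CPM for MSC-TPr. Its level in Ctl MSC 1 was 25.3-fold that in MSC-TPr 1. The log2 fold change was 0.24 with a standard error of 1.23 over 6 libraries (adjusted p 0.945) and 2.78 with a standard error of 0.128 without the libraries numbered 1 (adjusted p 0.000112). Rrm2, the subunit of ribonucleotide reductase that is made in S phase (chr12:24708241-24714146, + strand), reached 126, 14.0 and 13.6 CPM for Ctl MSC, against 10.7, 173 and 142 CPM for MSC-TPr, a span of 16.1-fold.

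Its partner Rrm1, the large subunit, spanned 3.92-fold, from 65.4 CPM in Ctl MSC 2 to 257 CPM in Ctl MSC 1. Per kilobase, Rrm2 exceeded Rrm1 by 1.95-fold in Ctl MSC 1 and by 2.89- and 2.68-fold in MSC-TPr 2 and 3, and Rrm1 exceeded Rrm2 by 1.18- and 1.34-fold in Ctl MSC 2 and 3 and by 1.72-fold in MSC-TPr 1. On this scale the order of the subunits turned with the set of libraries, but that order depends on the length used. The merged exons of all annotated transcripts measure 11012 bases for Rrm1 and 2771 for Rrm2. In CPM, which is not scaled by length, Rrm1 was above Rrm2 in all 6 libraries. Tyms, which makes thymidylate from deoxyuridylate, spanned 5.35-fold. Dut, the dUTPase that keeps uracil out of DNA, was the most even of this group, at 112, 75.5 and 80.3 CPM for Ctl MSC, against 80.0, 157 and 120 CPM for MSC-TPr, with a log2 fold change of 0.41 and a standard error of 0.287 over 6 libraries (adjusted p 0.546) and one of 0.83 with a standard error of 0.158 without the libraries numbered 1 (adjusted p 0.0083). All 5 of these genes were called higher without the libraries numbered 1 (20.6% of all genes).

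Behind the fork, Uhrf1, which recognises hemimethylated CpG and brings in the maintenance methyltransferase, varied most. It reached 72.0, 9.83 and 9.76 CPM for Ctl MSC, against 7.97, 75.8 and 75.8 CPM for MSC-TPr. The log2 fold change was 0.80 with a standard error of 1.06 over 6 libraries (adjusted p 0.772) and 2.95 with a standard error of 0.122 without the libraries numbered 1 (adjusted p 9.49e-05). Dnmt1, that methyltransferase, reached 183, 57.5 and 54.7 CPM for Ctl MSC, against 28.8, 98.9 and 110 CPM for MSC-TPr. Ctl MSC 1 stood above MSC-TPr 2 and 3 for Dnmt1, where the same libraries were level for Uhrf1. Chaf1b, a subunit of the histone chaperone CAF-1, was the most even, at 35.0, 16.2 and 15.9 CPM for Ctl MSC, against 14.8, 34.3 and 27.0 CPM for MSC-TPr. Chaf1a, the large subunit of CAF-1, was highest in MSC-TPr 3 at 69.3 CPM and shares 52.5% of its exonic length with Ubxn6 on the opposite strand.

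The span over the 6 libraries was set beside the letters in front of the genes. The 10 genes with E2F letters spanned 1.35- to 9.51-fold with a median of 5.66-fold, and the 28 genes with a window but no such letters spanned 1.29- to 25.3-fold with a median of 3.65-fold. The first range lay inside the second. Mcm7, with 1 E2F match, was among the narrowest of all, while Tk1 and Rrm2, the widest, had no E2F letters in their windows. This comparison is a description over genes and was not tested.

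**Figure D4:**
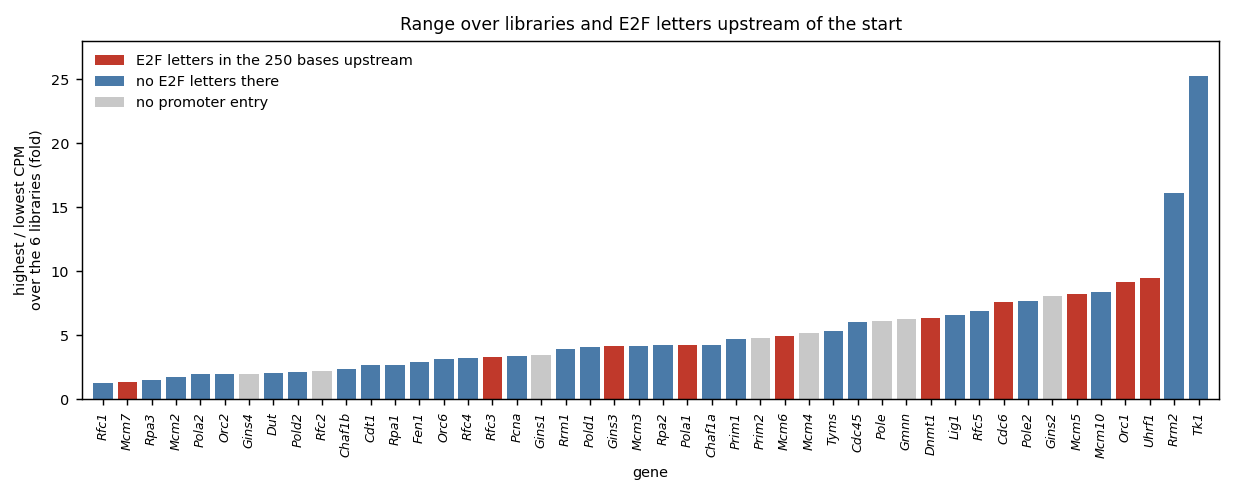
Highest level divided by lowest level over the 6 libraries (vertical axis, fold, from 0) for each of the 46 genes, ordered from Rfc1 at 1.29-fold to Tk1 at 25.3-fold and coloured by whether the 250 bases before the start hold E2F letters. The 10 genes with these letters are scattered from Mcm7 at 1.35-fold to Uhrf1 at 9.51-fold.

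The 5 measured neighbours whose starts lie back to back with those of replication genes each spanned less than their replication gene. Prpf38a, a splicing factor gene that starts 87 bases from Orc1 on the other strand, reached 49.5, 33.1 and 36.6 CPM for Ctl MSC, against 39.5, 50.1 and 38.2 CPM for MSC-TPr, a span of 1.51-fold where Orc1 spanned 9.15-fold. Prkdc, 466 bases from Mcm4, spanned 1.51-fold (Mcm4 5.17-fold), Abhd12, 659 bases from Gins1, 1.43-fold (Gins1 3.43-fold), Smyd4, 109 bases from Rpa1, 1.78-fold (Rpa1 2.68-fold), and Pxmp2, 120 bases from Pole, 2.77-fold at 0.481 to 1.33 CPM (Pole 6.16-fold). Of these 5 neighbours within 1000 bases that stood in the table, only Pxmp2 had the same 3 highest libraries as the replication genes. Counts were also made for the 36 replication genes that share no exons with another gene of the table. All 36 had Ctl MSC 1, MSC-TPr 2 and MSC-TPr 3 as their 3 highest libraries (23.0% of all genes). Of them, 33 were called higher without the libraries numbered 1, against 20.6% of all genes. The part of shared exons in the levels was not tested.

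The rest of the replication pathway was read from further lists. Of 28 other replication factors, edgeR called none over 6 libraries, with 4 at an unadjusted p under 0.05 (15.0% of all genes). DESeq2 called Orc4 alone, higher in MSC-TPr. Without the libraries numbered 1, 22 were higher and 1 lower in edgeR's test, where 20.6% of all genes were called higher and 19.4% lower. The same 3 highest libraries stood in 23 of the 28, against 23.0% of all genes. Orc4, a subunit of the same complex as Orc2, reached 61.7, 52.0 and 47.7 CPM for Ctl MSC, against 78.0, 133 and 93.1 CPM for MSC-TPr, and its groups did not overlap. Its log2 fold change over 6 libraries was 0.92 with a standard error of 0.235 in edgeR (adjusted p 0.179) and 0.93 in DESeq2 (adjusted p 0.028), and without the libraries numbered 1 it was 1.19 in edgeR (adjusted p 0.0045). Orc3, a further subunit, had groups that did not overlap in the other direction, at 79.5, 76.9 and 75.0 CPM for Ctl MSC, against 66.6, 50.0 and 48.6 CPM for MSC-TPr, with a log2 fold change of −0.49 over 6 libraries (edgeR, adjusted p 0.263) and −0.62 without the libraries numbered 1 (adjusted p 0.0062). Dscc1, of an alternative clamp loader, spanned 26.2-fold, Pclaf, a small partner of Pcna, 25.1-fold and Top2a, the topoisomerase that untangles copied DNA, 12.2-fold. Top2a reached 488, 48.3 and 45.6 CPM for Ctl MSC, against 40.1, 398 and 395 CPM for MSC-TPr. Of 29 other genes of nucleotide synthesis, 15 were higher and 2 lower without the libraries numbered 1 (20.6% and 19.4% of all genes). None was called over 6 by edgeR (1 at an unadjusted p under 0.05) or by DESeq2. Dtymk, the thymidylate kinase, spanned 3.87-fold and Dck, the deoxycytidine kinase of the salvage pathway, 2.88-fold.

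Of 12 other chromatin assembly genes, 8 were higher and none lower without the libraries numbered 1, where 20.6% of all genes were called higher and 19.4% lower. The list was led in span by the histone chaperone Asf1b (6.81-fold), the remodeller Hells (4.96-fold) and the acetyltransferase Hat1 (4.22-fold). Of 28 regulators of S phase entry, 14 were higher and 4 lower in the same fit, against 20.6% and 19.4% of all genes. Over 6 libraries edgeR called none of them, with 6 at an unadjusted p under 0.05 (15.0% of all genes). Of the 26 with an adjusted p, DESeq2 called 1 higher and 1 lower (1.89% and 3.39% of all genes). The groups did not overlap for 3 in the higher and 4 in the lower direction (10.6% and 12.1% of all genes). Ccna2, the cyclin of S and G2 phase, reached 135, 7.05 and 6.73 CPM for Ctl MSC, against 6.20, 110 and 120 CPM for MSC-TPr, and E2f8, a repressor of the E2F family, spanned 13.9-fold in the same order. Cdkn1c, the inhibitor p57, went the other way at a low level, with 0.906, 1.71 and 1.16 CPM for Ctl MSC, against 0.554, 0.118 and 0.371 CPM for MSC-TPr. MSC-TPr 2 was below the floor of 3 reads for this gene. Its groups did not overlap, yet its log2 fold change of −1.83 did not pass over 6 libraries (edgeR, adjusted p 0.227), where it was −2.45 without the libraries numbered 1 (adjusted p 0.012).

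Genes of mitosis moved with the replication genes and over wider spans. The mean log2 CPM of 12 mitosis markers was 6.46, 3.08 and 3.10 for Ctl MSC 1, 2 and 3, against 3.09, 6.35 and 6.42 for MSC-TPr 1, 2 and 3, and all 12 had the same 3 highest libraries. Their median span was 14.6-fold against 4.21-fold for the 46 replication genes. Mki67, the gene of the Ki-67 antigen, reached 218, 18.6 and 16.5 CPM for Ctl MSC, against 13.7, 195 and 293 CPM for MSC-TPr. EdgeR called none of the 12 over 6 libraries (0 at an unadjusted p under 0.05), nor did DESeq2 among the 7 to which it gave an adjusted p. Without the libraries numbered 1, all 12 were called higher, against 20.6% of all genes. The replication genes were therefore also compared between the labels with this mean as a covariate, a fit chosen after seeing the data. In it none of the 46 was higher and 4 were lower in MSC-TPr, against 4.72% and 7.44% of all genes, so the share of lower calls was close to that of all genes. The 4 were Dnmt1 (log2 fold change −0.86, adjusted p 0.0051), Tk1 (−0.80, 0.039), Gmnn (−0.68, 0.026) and Rfc5 (−0.66, 0.020).

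The haematopoietic markers did not follow the split of the libraries as a sum. The summed level of 9 haematopoietic markers was 14.5, 13.6 and 11.2 CPM for Ctl MSC, against 17.5, 15.8 and 12.9 CPM for MSC-TPr, with 3 of the 9 at 0 reads in every library, Adgre1 and Cd3e among them, and 5 of the 9 at or under the floor throughout. Single members did follow it, and of the 3 tested, 2 were called higher and 1 lower without the libraries numbered 1 (20.6% and 19.4% of all genes). Cd68, a lysosomal protein of macrophages, was lower in the high libraries, at 1.63, 9.67 and 7.39 CPM for Ctl MSC, against 14.2, 1.66 and 0.789 CPM for MSC-TPr, and Cd14 was higher in them, at 11.7, 3.36 and 3.53 CPM for Ctl MSC, against 3.27, 13.2 and 11.0 CPM for MSC-TPr. The 5 endothelial markers summed to 0.785, 2.83 and 3.09 CPM for Ctl MSC, against 3.32, 1.89 and 1.67 CPM for MSC-TPr. This sum was lower in the 3 high libraries, but at a low level, with 2 of the 5 at or under the floor throughout. The 10 MSC markers, in contrast, summed to 9330, 4274 and 4279 CPM for Ctl MSC, against 2976, 8292 and 15212 CPM for MSC-TPr, with the collagen gene Col1a1 alone at 3250, 660 and 639 CPM for Ctl MSC, against 354, 3052 and 6916 CPM for MSC-TPr. Their sum was thus high in the same 3 libraries as the replication genes. As a list they did not all do so, since 5 of the 10 had these 3 highest libraries (23.0% of all genes) and Nt5e followed the labels. Of the 9 tested, 3 were called higher and 1 lower without the libraries numbered 1, against 20.6% and 19.4% of all genes. The part of other cells and of the MSC markers in the split of the libraries was not tested.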

How the data were processed

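Counts from 6 libraries (3 Ctl MSC, 3 MSC-TPr, each taken as 1 replicate) were used, grouped by the labels. Per the labels, polyA RNA was prepared with a stranded kit. The study's methods give a RIN above 8, paired-end sequencing, mm10 and Htseq-count, and the submitters' processing notes name CASAVA 1.8.2, Trimmomatic 0.35 and TopHat2 2.1.0. The authors deposited raw read counts per gene, and the strand setting is not given in the sources used here. Summary rows (13.8 to 20.8% of listed counts) were left out.

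Tests used R 4.3.3 and edgeR 4.0.16, with TMM scaling, filterByExpr, the quasi-likelihood test and Benjamini-Hochberg adjustment over all genes tested, and calls needed an adjusted p under 0.05 and an absolute log2 fold change of 0.5 or more. Log2 CPM used a prior count of 2. The standard error is the size of the log2 fold change divided by the square root of F. Alternatives were DESeq2 1.42.0, RLE and upper quartile scaling, other filters, a replicate block, each library or number left out, and a mitosis covariate. Positions come from GENCODE vM21 and promoters from RefSeq.

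The members and lists were chosen with earlier results of these data known. Named genes are the widest and narrowest range of log2 CPM in each of 7 roles, members called or with groups that do not overlap over 6 libraries, the 3 widest of each further list (1 of them is not reported here) and the transduced genes. The other genes with values were named after these were seen.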

Additional observations from a re-analysis of the deposited data

How the results depend on the processing

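Over 6 libraries, calls among the 46 genes stayed at 0 with RLE and upper quartile scaling, both other filters and the adjusted p alone (2 to 3 of all genes higher, 29 to 62 lower), with DESeq2 (244 and 439 of all genes) and with each single library left out, where all genes gave few calls too (0 to 11 higher, 0 to 105 lower, and at most 1 without Ctl MSC 2, Ctl MSC 3, MSC-TPr 2 or MSC-TPr 3). The choice of libraries moved the results most. Leaving out libraries gave 0 to 41 genes called higher (41 without both libraries numbered 1, 0 in every other case), 0 called lower, a median log2 fold change of −0.20 to 1.53 and 1 to 45 genes higher with groups that do not overlap (45 without both numbered 1, 18 without Ctl MSC 1, 11 without MSC-TPr 1, where 38.4, 23.0 and 20.2% of all genes did so). With 1 library left out, log2 fold changes of named genes whose direction turned ran from −0.072 to 1.60 (Orc1), −0.073 to 0.19 (Mcm7), −0.37 to 0.96 (Rfc5), −0.081 to 1.48 (Lig1), −0.22 to 2.24 (Tk1) and −0.093 to 0.66 (Chaf1b). Without both libraries numbered 2 they were −0.46 (Orc1), −0.023 (Mcm7), −0.075 (Pola2), −0.0087 (Rpa3), −0.34 (Lig1), −0.63 (Tk1) and −0.28 (Chaf1b), without both numbered 3 they were −0.30 (Orc1), −0.0052 (Pola2), −0.39 (Lig1), −0.56 (Tk1) and −0.067 (Chaf1b), and Rfc5 turned to 1.39 without both numbered 1. With the mitosis markers as a covariate, 4 genes were called lower, and Orc1 (−0.46), Pola2 (−0.016), Lig1 (−0.36), Tk1 (−0.80), Chaf1b (−0.15) and Uhrf1 (−0.049) turned negative, and Rfc5 (−0.66) passed the threshold. Upper quartile scaling put Mcm7 at −0.0014. Libraries that shared a replicate number deviated from their groups in opposite senses (correlations over genes of −0.76, −0.59 and −0.60). Each deviation depends on the other libraries of its group, so the 3 values are not independent and cannot decide whether the numbers pair the libraries. With the number as a block, 0 of the 46 and 0 of all genes were called (edgeR, adjusted p 0.781 to 0.992 for the 46) and Rfc5 stood at 0.21. The causes were not tested. With 2 libraries per group, the fit without both libraries numbered 1 takes its spread from few libraries, and the lowest count among the 46 genes was 26 reads.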
